A study of Mus musculus with 2 samples.

Results

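Gata3 binding was examined here at 10 genes that encode transcription factors of naive and thymic T cells, in chromatin of TH2 cells, out of 21938 protein-coding genes. The genes were Satb1, Tcf7, Lef1, Bach2, Klf2, Myb, Bcl11b, Ets1, Foxo1 and Id3, each taken as the gene record of GENCODE M21 with 50 kb either side, and with 400 kb either side for Satb1. Both libraries came from splenic TH2 cell subsets that had been expanded in vitro, immunoprecipitated with the anti-GATA3 antibody D13C9 and tagmented on the beads, so that a transposase fragmented the captured chromatin while attaching adaptors to it. They are replicates 1 and 2 of 1 condition with no second condition, no input library was used here, and nothing in the labels says that they came from separate animals or cultures. The study's mouse lines were of C57BL/6 background, and the genotype and age of the mice behind these libraries are not given in the sources used here. For this assay the study's methods name in vitro TH2 cells. Its mouse TH2 cultures started from naive CD4+ T cells of the spleen, with anti-CD3, anti-CD28, IL-2, IL-4 and an antibody that neutralises IFN-γ. In the windows of the 10 genes, 92 peaks were called in both libraries, of 23806 such shared peaks in the genome.

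Gata3 is a zinc finger transcription factor that is needed for T cell development in the thymus, and later for the differentiation of CD4+ T cells into TH2 cells, where it acts at the IL-4, IL-5 and IL-13 genes. It binds a short sequence around the letters GATA. Most of the 10 genes act with it or around it during T cell specification, among them the HMG box factors encoded by Tcf7 and Lef1 and the zinc finger factor Bcl11b, and several others (Foxo1, Klf2, Bach2 and Satb1) hold mature T cells in a naive, quiescent state that wanes on activation.

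A peak here is a run of 200-bp windows whose reads exceeded the local read density of the same library (exact Poisson test, one-sided, at a Benjamini-Hochberg q of 0.01), and it is called shared if the peaks of both libraries overlap. Its summit is the midpoint of its most heavily covered window, its level is the count in that window in reads-per-million units (RPM), and its height rank uses the lower of the 2 RPM values. Library 1 held 40526613 reads and library 2 held 24970952 reads, so 1 RPM stands for fewer reads in library 2 and its intervals are wider. Intervals are 95% exact Poisson or binomial intervals and cover counting error only. As a check of the cells, the 6 TH2 marker genes had a median of 5.72 shared peaks per 100 kb and the 4 T cell markers analysed 6.64, against 0.899 for 4 B cell and 0.921 for 4 myeloid markers. Reads between the T cell receptor delta segments Trdd1 and Trdj2, which are lost when the alpha chain gene rearranges, stood at 3.98% of the flanking density in library 1 and 4.52% in library 2.

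Every one of the 10 genes had at least 1 shared peak within its window, and 9 of them, all but Klf2, had one inside the gene record. Over all protein-coding genes, 29.4% had a shared peak in the gene record and 71.2% had one in the record or 50 kb either side. Longer genes offer more sequence in which to find a peak, and 8 of the 10 genes are between 30.6 and 347 kb long, whereas the median length of all genes was 17.4 kb, so the shares of gene records are not matched for length. A shared peak within 2 kb of an annotated start of a protein-coding transcript was found at 4 genes (Satb1, Tcf7, Lef1 and Id3), against 14.3% of all genes. With 50 kb either side of every gene the median density was 3.84 shared peaks per 100 kb for the 10 genes and 0.978 for all genes. The members were chosen with results of these data known, so these counts are set beside the background without a test. The counts depended on how strong a peak had to be: at a q of 1e-10, 5 gene records and 2 starts had a shared peak, against 9.6% and 3.49% of all genes, and with at least 5-fold over the local density 3 records and 1 start had one, against 11.4% and 3.45%.

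The peaks were spread unevenly. Bach2 had 27, Satb1 25 (9 of them within 50 kb), Ets1 11, Lef1 7, Myb 6, Id3 6, Tcf7 4, Bcl11b 3, Klf2 2 and Foxo1 1. In library 1 alone the order differed: Satb1 58, Bach2 41, Ets1 22, Lef1 15, Tcf7 14, Myb, Id3 and Bcl11b 10 each, Foxo1 9 and Klf2 5. Each of the 92 summits was placed against its own member gene only, so exons and introns of neighbouring genes were not considered. By that rule 44 lay in introns, 35 upstream of the gene, 12 downstream and 0 in exons. The remaining 1 lay in the Ets1 record outside its coding transcripts. The median distance to the nearest start of the same gene was 44.7 kb, 83 summits lay over 10 kb from it and 19 over 100 kb. For 80 of them no other protein-coding gene had a nearer start site. Placement and distance are not given here for all shared peaks, so those counts have no background beside them. Summits of the 2 libraries lay within 100 bp of each other at 78 of the 92 peaks, against 18801 of all 23806. Those of the 92 were at most 300 bp apart.

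**Figure D1:**
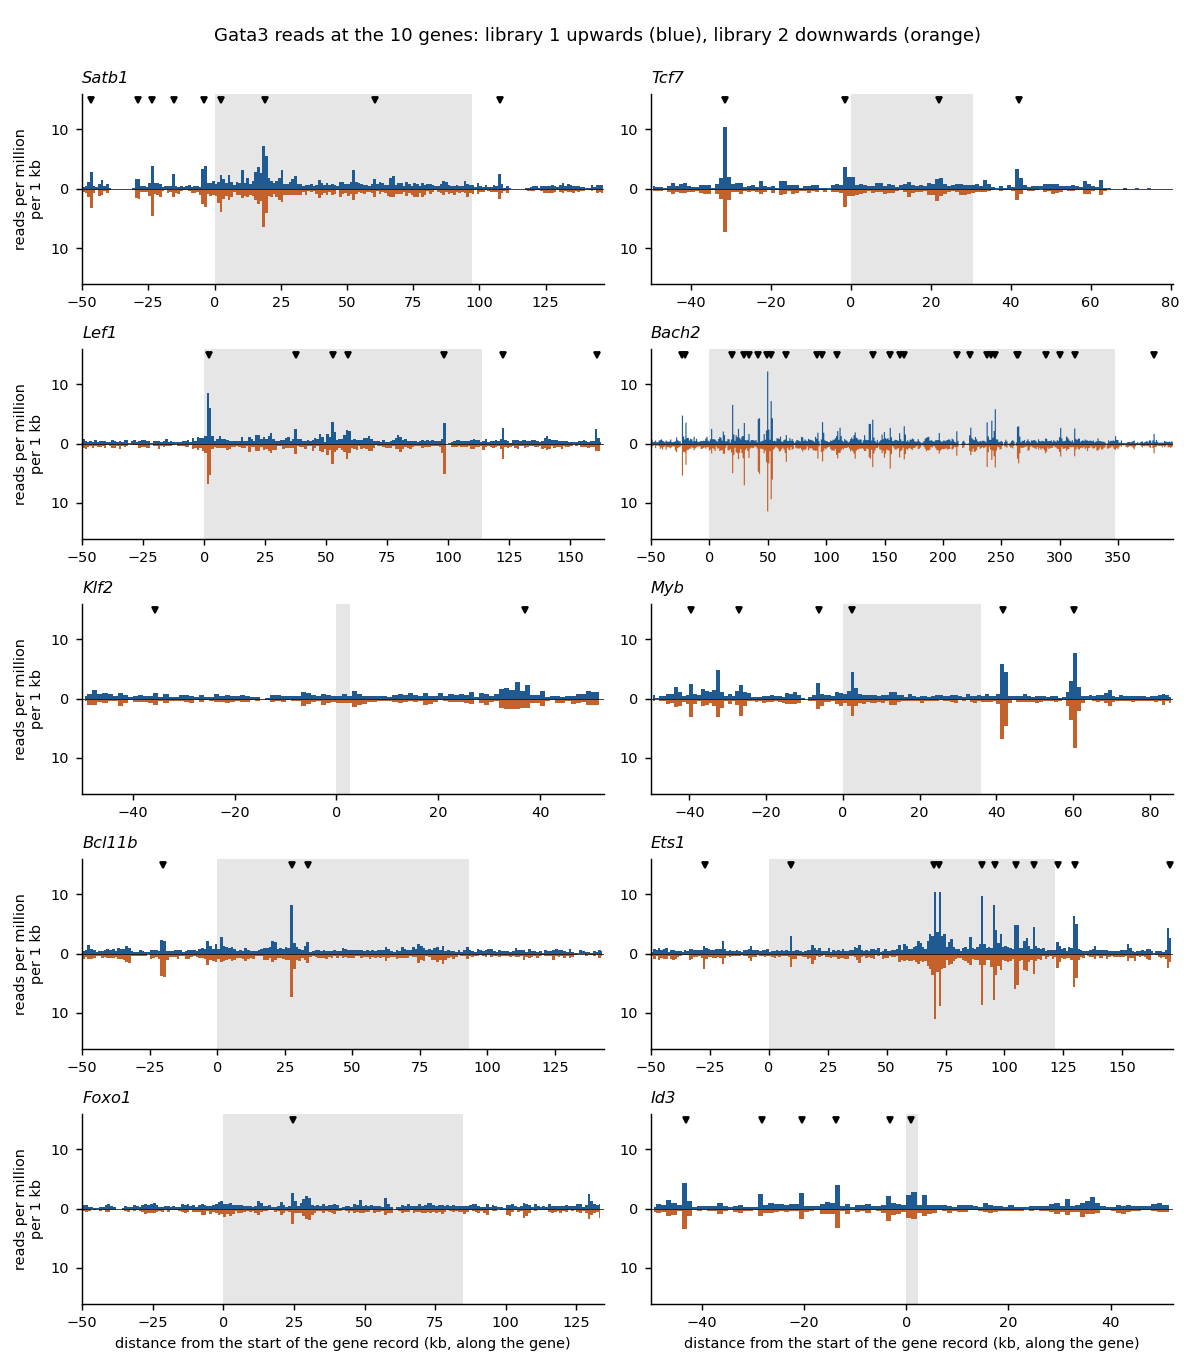
RPM in 1-kb bins (vertical axis, library 1 upwards and library 2 downwards) against the distance in kb from the start of each gene record, read along the gene, with 50 kb either side. Grey marks the gene record and triangles the shared peaks: Bach2 holds 27 and Foxo1 holds 1. Not every peak of library 1 was shared: at Tcf7 library 1 had 14 peaks, and 4 were shared.

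The sequences under the peaks that stand out most are given here, to show what the tallest site of a gene holds and how the sites differ. Each is the plus strand of GRCm38 (RefSeq sequence) to 100 bases either side of the library 1 summit. Capitals mark GATA words (AGATAA and AGATAG, with TGATAA and TGATAG, or their reverse complements, such as TTATCT for AGATAA) and AP-1 words (TGACTCA or TGAGTCA). Both distal Satb1 sites, the Satb1 site past the end of the gene, and the Tcf7, Bach2, Ets1 and Lef1 sites hold GATA words. The Bcl11b and Myb sites hold an AP-1 word and no GATA word.
Satb1, 329 kb upstream, chr17:52162600-52162800: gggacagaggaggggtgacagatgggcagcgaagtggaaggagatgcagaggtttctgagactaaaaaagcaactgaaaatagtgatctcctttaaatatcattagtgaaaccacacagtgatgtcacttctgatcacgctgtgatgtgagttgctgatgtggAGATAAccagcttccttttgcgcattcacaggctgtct
Satb1, 203 kb upstream, chr17:52036300-52036500: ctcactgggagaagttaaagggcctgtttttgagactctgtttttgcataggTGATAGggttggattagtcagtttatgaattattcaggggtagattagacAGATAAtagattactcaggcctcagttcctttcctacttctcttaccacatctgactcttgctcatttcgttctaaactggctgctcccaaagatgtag
Satb1, 327 kb past the end, chr17:51408650-51408850: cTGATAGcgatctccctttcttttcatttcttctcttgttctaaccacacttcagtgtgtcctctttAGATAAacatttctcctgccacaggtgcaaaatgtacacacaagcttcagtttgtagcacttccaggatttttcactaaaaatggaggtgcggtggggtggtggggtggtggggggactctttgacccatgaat
Tcf7, 31.4 kb upstream, chr11:52314350-52314550: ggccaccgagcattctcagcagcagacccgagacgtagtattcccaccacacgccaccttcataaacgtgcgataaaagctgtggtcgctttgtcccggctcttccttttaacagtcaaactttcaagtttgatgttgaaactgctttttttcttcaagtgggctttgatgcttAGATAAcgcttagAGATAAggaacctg
Lef1, at the second start site, chr3:131112350-131112550: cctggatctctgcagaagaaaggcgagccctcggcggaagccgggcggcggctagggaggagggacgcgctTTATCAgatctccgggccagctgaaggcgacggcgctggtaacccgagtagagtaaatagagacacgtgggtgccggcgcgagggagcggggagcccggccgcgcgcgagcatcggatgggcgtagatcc
Bach2, intron 1, chr4:32288100-32288300: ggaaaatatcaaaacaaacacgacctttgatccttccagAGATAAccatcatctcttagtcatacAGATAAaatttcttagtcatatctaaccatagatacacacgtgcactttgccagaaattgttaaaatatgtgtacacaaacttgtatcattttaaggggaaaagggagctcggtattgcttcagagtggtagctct
Ets1, intron 1, chr9:32706350-32706550: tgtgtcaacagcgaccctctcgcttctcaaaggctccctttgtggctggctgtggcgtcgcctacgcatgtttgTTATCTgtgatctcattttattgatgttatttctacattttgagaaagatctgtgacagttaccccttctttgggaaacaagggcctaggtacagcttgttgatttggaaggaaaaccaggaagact
Bcl11b, intron 2, chr12:107975800-107976000: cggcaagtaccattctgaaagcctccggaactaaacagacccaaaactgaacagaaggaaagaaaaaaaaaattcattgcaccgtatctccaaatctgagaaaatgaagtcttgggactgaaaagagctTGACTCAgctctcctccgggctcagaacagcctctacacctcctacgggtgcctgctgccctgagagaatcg
Myb, 24.2 kb past the end, chr10:21100650-21100850: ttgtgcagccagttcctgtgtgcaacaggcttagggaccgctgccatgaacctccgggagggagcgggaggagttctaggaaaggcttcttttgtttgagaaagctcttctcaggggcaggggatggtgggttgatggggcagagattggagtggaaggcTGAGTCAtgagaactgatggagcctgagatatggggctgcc

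Satb1 encodes a nuclear protein that organises chromatin loops in thymocytes. The gene lies on the minus strand of chromosome 17 (chr17:51736187-51833290), and its tallest peaks were far outside it. The peak 329 kb upstream (chr17:52162151-52163350) had 225 reads at its summit in library 1, 5.55 RPM (95% interval 4.85 to 6.33), and 189 reads in library 2, 7.57 RPM (6.53 to 8.73), and ranked 4 among the 23806 shared peaks. The next, 203 kb upstream (chr17:52035001-52036900), had 205 and 141 reads, 5.06 and 5.65 RPM, and ranked 21. In the windows used these are the only 2 peaks of the 10 genes in the top 1% by height. Both lie in the flank of 400 kb taken for Satb1 alone, against 50 kb for the other genes. In the sequence shown above, the first holds 1 AGATAA at 65.5 bp from its summit, and the second holds a TGATAG and an AGATAA, the nearest at 4.5 bp.

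The upstream side of Satb1 carried most of its peaks. The 769 kb between Satb1 and the next protein-coding gene upstream, Kcnh8, held 26 shared peaks, 3.38 per 100 kb. The 557 kb between Satb1 and its downstream protein-coding neighbour Tbc1d5 held 2, 0.359 per 100 kb. The genome mean was 0.873 per 100 kb. Of the downstream pair, the peak 327 kb past the end of the gene (chr17:51408151-51409150) had 142 and 129 reads, 3.51 and 5.17 RPM, at the 98.2 percentile of height. Its nearest protein-coding start belongs to Tbc1d5, 229439 bp away, so its assignment to Satb1 rests on the width of the window alone.

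Inside Satb1, 3 peaks were shared. The tallest (chr17:51813801-51814700), in intron 1, had 132 reads in library 1 and 76 in library 2, 3.26 and 3.04 RPM, at the 96.8 percentile, 604 bp downstream of an internal start site that lies 18.3 kb into the gene record. The window of 1 kb around that start held 144 and 76 reads, 9.69 and 8.30 times the library mean, the highest of the 9 annotated starts of Satb1. The start of the gene record itself was at 3.03 and 3.28 times the library mean. A further peak lay 1.17 kb from a start, and the 14 GATA words within 100 bp of its summit all belong to 1 simple repeat of the letters CTAT. That peak stood lower, with 33 and 29 reads at the 52.0 percentile.

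**Figure D2:**
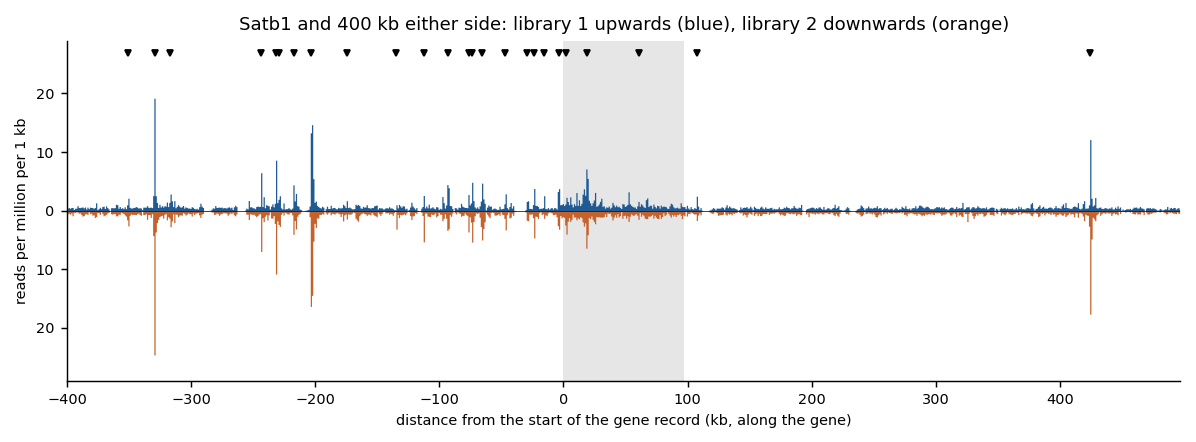
RPM in 1-kb bins (vertical axis, library 1 upwards and library 2 downwards) over Satb1 and 400 kb either side, by distance in kb from the start of the gene record along the gene. Grey marks the gene, triangles the 25 shared peaks, 20 of which lie upstream; the tallest bins are at 329 kb and 203 kb upstream and 327 kb past the end of the gene.

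Tcf7 and Lef1 encode the HMG box proteins TCF-1 and LEF-1, which bind DNA beside beta-catenin and are needed for T cell specification. At Tcf7, on the minus strand of chromosome 11 (chr11:52252371-52283014), library 1 had 14 peaks and library 2 had 4, and 4 were shared. The tallest lay 31.4 kb upstream (chr11:52313951-52315000) with 135 and 68 reads, 3.33 and 2.72 RPM, at the 95.6 percentile, and it was kept under each of 7 other ways of calling peaks. The peak 1.44 kb upstream of the start had 62 and 26 reads, 1.53 and 1.04 RPM, at the 67.7 percentile, with 1 GATA word, 1 TCF/LEF word and 1 ETS word within 100 bp. The core of 1 kb around the start itself held 112 reads in library 1 and 39 in library 2, 7.54 and 4.26 times the library mean. Reads at the Tcf7 start thus stood above the library mean in both libraries and further above it in library 1. A peak 41.5 kb past the start, with 63 and 22 reads at the 57.8 percentile and 2 TCF/LEF words, lies 8861 bp from the start of Skp1a.

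Lef1 lies on the plus strand of chromosome 3 (chr3:131110471-131224356) and had the highest read density at a start site of the 10 genes. The annotated start 2.33 kb into the record had 345 reads within the surrounding 1 kb in library 1 and 186 in library 2, 23.2 and 20.3 times the library mean. Set against the record starts of all protein-coding genes, 1 per gene, it was at the 99.7 percentile in each. The peak there (chr3:131111901-131112850) had 140 and 74 reads, 3.46 RPM (2.91 to 4.08) and 2.96 RPM (2.33 to 3.72), 347 bp upstream of that start and within intron 1 of the longer transcript. A GATA word lies 26.5 bp from its summit. The first start of the record, by contrast, was at 2.56 and 2.62 times the library mean. Of the other 6 Lef1 peaks, 4 were intronic. The one in intron 3 at 50.6 kb had 69 and 30 reads, 1.70 and 1.20 RPM, and the one in intron 11 had 50 and 51 reads, 1.23 and 2.04 RPM, with neither a GATA nor an AP-1 word. The most distal, at 158 kb, lay 851 bp from the start of the neighbouring gene Hadh.

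Bcl11b, which encodes a zinc finger repressor that commits thymocytes to the T cell lineage, is on the minus strand of chromosome 12 (chr12:107910403-108003602) and had 3 shared peaks. The tallest, in intron 2 (chr12:107975451-107976350), had 127 reads in library 1 and 69 in library 2, 3.14 RPM (2.61 to 3.73) and 2.76 RPM (2.15 to 3.5), at the 95.7 percentile. It holds TGACTCA, the AP-1 word, and no GATA word. A second intronic peak at 33.3 kb, with 31 and 15 reads, holds both. The third, 19998 bp upstream, had 35 and 41 reads, and 12 GATA words, most of which belong to 1 repeat of the letters GATA. No shared peak lay within 2 kb of either Bcl11b start, although in library 1 the read density of the 4 kb around the start was at the 93.6 percentile of all genes and in library 2 at the 92.1.

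Myb encodes a factor that sustains the proliferation of progenitors and thymocytes. On the minus strand of chromosome 10 (chr10:21124935-21160984), its 2 tallest peaks lay past its end, in the interval towards Ahi1. The one 24.2 kb past the end (chr10:21100401-21101200) had 128 and 74 reads, 3.16 and 2.96 RPM, at the 96.6 percentile, with TGAGTCA and no GATA word, and its nearest start is that of Ahi1 at 59930 bp. The one nearer the gene (chr10:21118351-21119700) had 84 and 67 reads, 2.07 and 2.68 RPM, at the 91.1 percentile, with TGAGTCA and a TTATCT. A peak in intron 1, with 60 and 26 reads, lay 2.15 kb from the nearest start, just outside the 2 kb used for start sites. The other 3 peaks were upstream, between 33.7 and 65.6 in percentile.

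Ets1, which encodes an ETS family factor of lymphocyte development, lies on the plus strand of chromosome 9 (chr9:32636221-32757820). Its annotated coding starts lie 59.8 to 60.2 kb into the record, and its tall peaks lay after them. Within introns 1 to 6, 5 peaks had heights above the 94th percentile, and 34.7 kb separated the first of these from the last. Their reads were 125 and 79, 127 and 72, 131 and 71, 121 and 66, and 100 and 63 in libraries 1 and 2. These 5 sites were of similar level in both libraries, from 2.47 to 3.23 RPM in library 1 and from 2.52 to 3.17 RPM in library 2. The first of them is shown above and holds a TTATCT 23.5 bp from its summit, and the one with 131 reads in library 1 holds TGACTCA and no GATA word.

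These Ets1 sites lie in a region of raised density. Its densest 10 kb held 1481 reads in library 1 and 883 in library 2, 9.97 and 9.64 times the library mean. Among the 10 genes only Satb1 exceeded this (10.1 and 11.7), at chr17:52030001-52040000 in its wider flank of 400 kb. The first 2 of the 5 Ets1 sites were therefore measured against a high local background and reached 2.65 and 2.57 times it in library 1. That background includes the reads of the peak itself and of close neighbours, so these folds are not over a separate background. A required 5-fold rise over the local background leaves Ets1 with 0 shared peaks, and 400-bp windows give 13. Downstream of the gene a peak (chr9:32765551-32766550) had 141 reads in library 1 and 57 in library 2, 3.48 and 2.28 RPM. The peak 27.0 kb upstream of the record, with 25 and 32 reads, has its nearest start in Fli1, 66339 bp away. At the Ets1 starts no shared peak was found.

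Id3 encodes an inhibitor of E proteins that acts downstream of the pre-T cell receptor. It is short, on the plus strand of chromosome 4 (chr4:136143497-136145755), and 5 of its 6 shared peaks lay upstream, from 3.15 to 43.2 kb. The tallest was the most distal (chr4:136099751-136100600), with 61 and 38 reads, 1.51 and 1.52 RPM, at the 82.6 percentile, and holds none of the GATA or AP-1 words. The peak 13.8 kb upstream had 78 and 33 reads, 1.93 and 1.32 RPM, at the 78.4 percentile. In intron 2, 953 bp from the start, a peak had 51 and 20 reads, 1.26 and 0.801 RPM. The peak 3.15 kb upstream holds 4 GATA words. Shared peaks were dense here, at 5.87 per 100 kb and the 99th percentile of all genes. Their median height percentile was 54.6. Of the 6, 2 were below the median height of all shared peaks and 0 reached the top 5%.

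Bach2, a BTB and leucine zipper repressor that restrains effector differentiation of T cells, had 27 shared peaks, against 25 in the wider window of Satb1 and 9 within 50 kb of Satb1. The order of these 2 windows turned in each library alone, where Bach2 had 41 and 28 peaks and Satb1 58 and 31, and at 5-fold over the local density, with 3 and 4. Bach2 is the longest of the 10 genes, 347 kb on the plus strand of chromosome 4 (chr4:32238804-32586108), and 24 of its 27 peaks were intronic, 7 in intron 1, 7 in intron 2, 5 in intron 3 and 5 in intron 4. At 6.04 per 100 kb its density was at the 99.2 percentile of genes. The tallest peak, 49.2 kb from the start (chr4:32287701-32288950), had 138 and 81 reads, 3.41 and 3.25 RPM, at the 97.5 percentile, and the sequence above shows its 2 AGATAA words. Its neighbours at 52.7 kb and 41.8 kb had 106 and 91 reads and 104 and 67 reads. The former holds no GATA word and the latter a TTATCT.

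No shared peak was called at the starts of Bach2. In library 1 the 1 kb around the start of the record held 24 reads, 1.61 times the library mean, and in library 2 29 reads, 3.17 times, against medians over all genes of 1.61 and 1.75. Of the 27 Bach2 peaks, 8 were below the median height of all shared peaks and 2 in the top 5%. The 3 last intronic peaks, at most 35 reads in library 1, lie nearer to the start of Gja10, and the downstream peak, with 24 and 15 reads, lies 3772 bp from the start of Casp8ap2.

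Foxo1 and Klf2 had the fewest peaks. Foxo1, a forkhead factor that maintains Il7r and Klf2 expression in naive T cells, is on the plus strand of chromosome 3 (chr3:52268336-52353221), and its 1 shared peak lay in intron 1, 24.8 kb from the start, with 40 reads in library 1 and 26 in library 2, 0.988 and 1.04 RPM, at the 63.9 percentile. With 50 kb either side Foxo1 had 0.541 shared peaks per 100 kb, under the median of all genes. With 400 kb either side it had 2.60, at the 92.5 percentile of genes. In the 50 kb flanks 400-bp windows gave it 3 shared peaks and 100-bp windows 2, so its place in the order depends on flank and window. Library 1 alone had 9 peaks in these flanks and the gene, and library 2 had 3. Klf2, a zinc finger factor that controls trafficking genes of naive T cells such as S1pr1, is 2.62 kb long on the plus strand of chromosome 8 (chr8:72319033-72321656) and had 0 shared peaks in the gene and 2 in its window. With these 2 peaks Klf2 had 1.95 per 100 kb, at the 71.3 percentile of genes and above the median of 0.978. The one 37.1 kb past the start had 39 and 20 reads, 0.963 and 0.801 RPM. The one 35.6 kb upstream had 17 and 13 reads, 0.42 and 0.521 RPM. The latter stood at the 5.79 percentile of height, and its nearest start is that of Gm10282, 21860 bp away. Neither Klf2 peak was called with 400-bp or 100-bp windows, and the start of Klf2 stood at 1.48 and 1.75 times the library mean, near the medians over all genes. A gene with few or no shared peaks is not shown to lack binding at these depths.

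Across the 92 peaks, heights reached from 17 to 225 reads at the summit in library 1 and from 13 to 189 in library 2. By height, 15 peaks (16.3%) were in the top 5% of all shared peaks and 25 were below the median, and the median percentile was 65.8. Those 15 belong to Satb1 (5), Ets1 (4), Bach2 (2), and Tcf7, Lef1, Myb and Bcl11b with 1 each, whereas Id3, Klf2 and Foxo1 had 0. By gene, the median percentile was highest at Ets1 (92.9) and Satb1 (76.1) and lowest at Klf2 (28.6). Satb1 was counted over 400 kb either side and the other genes over 50 kb, so the genes are not compared over equal windows.

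**Figure D3:**
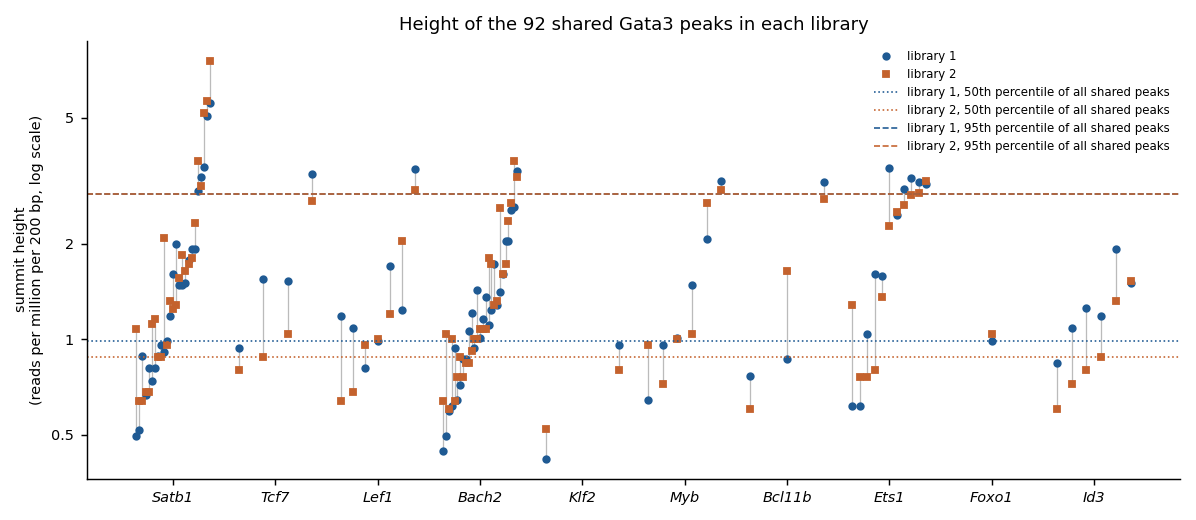
Summit level in RPM (vertical axis, log scale) of each of the 92 shared peaks in library 1 (circles) and library 2 (squares), by gene and ordered by height, with a grey line joining the 2 values of a peak. Dotted and dashed lines are the medians (0.988 and 0.881) and the 95th percentiles (2.86 and 2.87) of all shared peaks in libraries 1 and 2; peaks of Satb1, Ets1 and Bach2 pass the dashed lines in both libraries, and those of Foxo1, Id3 and Klf2 do not.

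The 2 libraries were compared peak by peak with a two-sided exact binomial test of the reads in the library 1 summit window, given the library totals, with Benjamini-Hochberg adjustment over all 23806 shared peaks. Over all shared peaks 1.94% differed at an adjusted p of 0.05, and of the 92 member peaks 0 did. The lowest adjusted p among the members was 0.0670, at the Satb1 peak 329 kb upstream. Of the members 19 had an unadjusted p under 0.05, of which 6 were higher in library 2 and 13 lower. The matching share over all shared peaks is not given here, so these 19 are not set against a background. With the median ratio of all peaks as the offset, 4 member peaks differed, each higher in library 2, and with the reads of 1 kb around the summit 21 did, 11 higher and 10 lower, against 1.80% and 16.9% of all shared peaks. The median ratio of library 2 to library 1 was 0.886 for member peaks and 0.811 for all. Each window was chosen as the fullest of the peak in library 1, a choice that favours library 1 in the ratio. With 1 kb around the summit the medians were 0.943 and 0.899. By gene, in the 200-bp windows, the median ratio was 1.05 at Satb1 and at the 1 Foxo1 peak. It was between 0.749 and 0.924 at Bach2, Myb, Ets1, Bcl11b and Tcf7, 0.675 at Id3, 0.659 at Lef1 and 0.644 at Klf2. Of the 9 Satb1 peaks over 200 kb from its start, 7 were higher in library 2, against 31 of all 92 member peaks. The same share over all shared peaks is not given here. Over the 92 peaks Spearman's rho between the GC content around the summit and the ratio was -0.10, as a description of sites that share their libraries. The read names carry a different instrument for each library, so replicate and sequencing run cannot be told apart.

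**Figure D4:**
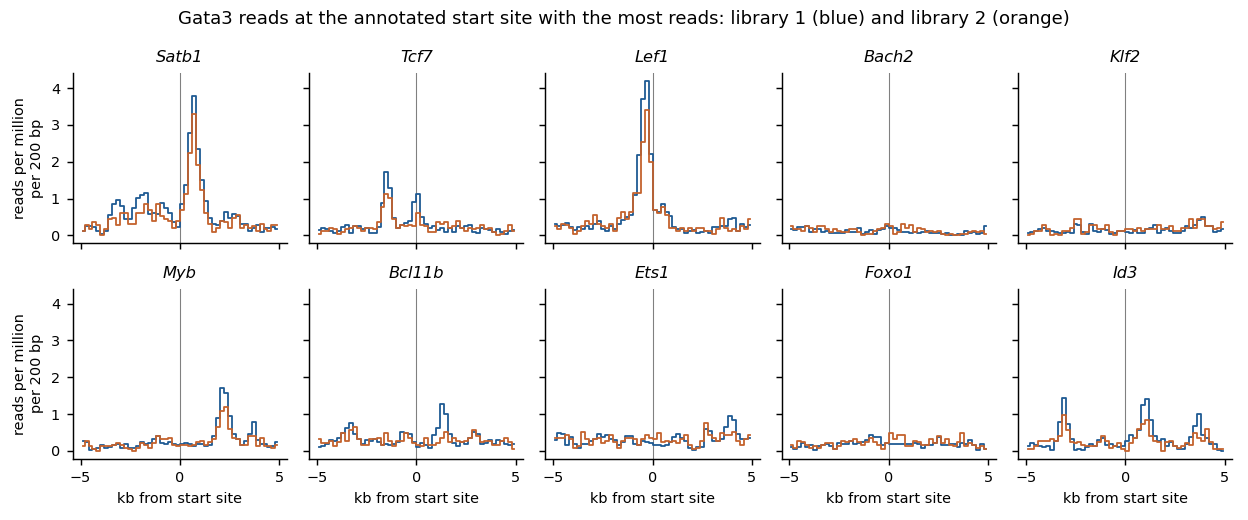
RPM in 200-bp bins (vertical axis) within 5 kb of the annotated coding start with the most reads of each gene (horizontal axis, kb along the gene), in library 1 (blue) and library 2 (orange). Lef1 and Satb1 show a peak next to that start, the Tcf7 and Myb peaks and 1 of 2 Id3 peaks lie within 3 kb of it, with the other Id3 peak 3.15 kb upstream, and Bach2, Bcl11b, Klf2, Foxo1 and Ets1 have no shared peak in view.

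In the 1 kb around the start of the record, the ratio of observed to expected CpG was 1.05 at Foxo1 and 0.982 at Bach2, at the 99.5 and 97.4 percentiles of all genes, and neither had a start-site peak. It was 0.862 at Tcf7, 0.672 at Id3 and 0.663 at Lef1, which had a shared peak within 2 kb of that start, and between 0.713 and 0.849 at Klf2, Bcl11b and Myb, which had none. At the record start of Satb1 it was 0.686, and the start-site peaks of Satb1 lie within 2 kb of other starts of the gene and not of this one. The record start of Ets1 was lowest at 0.216, and lies well before its coding starts.

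GATA words on either strand lay within 100 bp of 66 of the 92 summits, 71.7% (95% interval 61.4 to 80.6), against 71.0% of all shared summits. In windows 1 kb to either side of the same summits they occurred in 31.5%, and in 33.4% for all shared peaks. The median distance from a member summit to the nearest GATA word was 40 bp. Of the 66, 2 peaks owe their many words to simple repeats (the Satb1 peak at 1.17 kb and the Bcl11b peak at 19998 bp). By gene, GATA words were found at all 4 Tcf7 peaks, both Klf2 peaks and the 1 Foxo1 peak, 19 of 25 at Satb1, 17 of 27 at Bach2, 8 of 11 at Ets1, 5 of 7 at Lef1, 4 of 6 at Myb and at Id3, and 2 of 3 at Bcl11b.

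AP-1 words (TGACTCA or TGAGTCA) lay near 10 member summits, 10.9% (5.34 to 19.1), against 12.3% of all and 2.72% of the member flanks. Both kinds of word were present at 4 summits (4.35%) and neither at 20 (21.7%), against 8.22% and 24.9% of all shared peaks. Words of the TCF/LEF and ETS families, to which Tcf7, Lef1 and Ets1 belong, and of the RUNX family, which has no member among the 10 genes, were counted too. TCF/LEF words (CTTTGAA or CTTTGAT) lay near 17 summits, 18.5% (11.1 to 27.9), against 9.83% of all shared summits. They were in 12.5% of the member flanks and in 8.26% of the flanks of all shared peaks. RUNX words (TGTGGT or TGCGGT) were at 22.8% (14.7 to 32.8) against 18.7%, and ETS words (CAGGAAG or CCGGAAG) at 4.35% (1.20 to 10.8) against 10.3%. In the member flanks RUNX and ETS words were at 14.7% and 7.07%, against 16.1% and 7.83% in the flanks of all shared peaks. The TCF/LEF words were at 5 summits each of Satb1 and Bach2, 3 of Tcf7, 2 of Ets1 and 1 each of Myb and Bcl11b. These shares are descriptions of letters in a window, over peaks of which 52 belong to Satb1 and Bach2, and none was tested over the members.

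**Figure D5:**
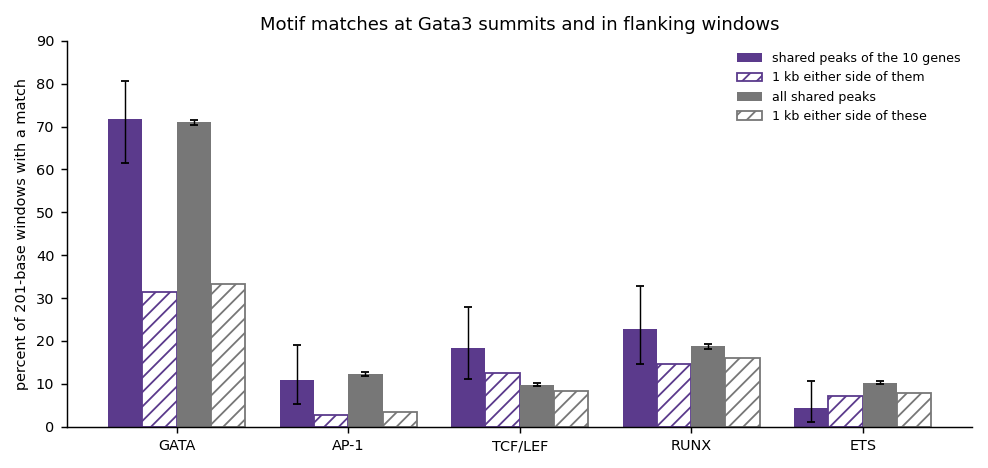
Percent of windows of 100 bp either side with at least 1 match (vertical axis) for 5 kinds of motif, at the 92 shared summits of the 10 genes and at all 23806 shared summits (filled bars, with 95% exact binomial intervals) and in windows 1 kb to either side (hatched). GATA matches occur at 71.7% of member summits and 31.5% of their flanks, close to the 71.0% and 33.4% of all shared peaks.

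Read density over the whole gene record was highest at Id3, with 2.23 RPKM (RPM per kb of gene) in library 1 (95% interval 1.93 to 2.56) and 1.53 in library 2 (1.22 to 1.88), and at Ets1, with 1.37 and 1.40, against medians over all genes of 0.503 and 0.5. A shared peak lies within the 2.26 kb of the Id3 record, and the interval of library 2 lies below that of library 1. Satb1 followed at 1.13 and 1.11, and Bach2 at 0.901 and 1.0. In library 1 the lowest were Klf2, at 0.565 (0.431 to 0.727), and Foxo1, at 0.616 (0.590 to 0.643), and in library 2 they were Myb, at 0.619 (0.569 to 0.673), and Foxo1, at 0.642 (0.608 to 0.677). The intervals of these neighbours overlap in each library. Between 0% (Bcl11b, Ets1 and Id3) and 6.15% (Tcf7) of the 1-kb bins of a window had no read in either library.

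Lists of related genes, with 50 kb either side, give the setting of the 10. Of 19 paralogues of the members, 9 had a shared peak in the gene record, 3 at a start and 17 in the window, with a median of 1.49 shared peaks per 100 kb. Of 15 other regulators of early T cell development that were analysed, 7 had one in the record, 7 at a start and 13 in the window, with a median of 2.78. The 6 genes of naive T cells that act downstream of Foxo1 and Klf2 had one in 5 records, at 1 start and in all 6 windows, with a median of 4.03, near the 3.84 of the 10 members and the 3.5 of 8 genes of the late or effector programme. Of the latter, 5 had one in the record, 3 at a start and 7 in the window. Of the marker lists, the 6 TH2 genes had one in 4 records, at 4 starts and in 6 windows, the 4 T cell genes in 2, at 3 and in 4, the 4 B cell genes in 0, at 0 and in 3, and the 4 myeloid genes in 1, at 0 and in 3. Beside the 29.4%, 14.3% and 71.2% of all genes, these are counts of small lists.

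Within the windows of those lists, Il7r (the IL-7 receptor alpha chain), Ccr7 and S1pr1 (homing and egress receptors) and Itgb7 had a peak in the top 5% by height, at the 95.8, 95.1, 97.2 and 97.1 percentiles. Among the effector genes this held for Zeb2 (99.5), Tbx21 (98.5), Irf4 (97.7) and Batf (95.9). Among paralogues it held for Klf6 (99.8), Ets2 (99.7), Tcf7l1 (98.5), Mybl1 (98.0) and Fli1 (97.5), and among the early regulators for Tcf3 (99.95), Ikzf1 (99.7), Runx1 (98.7) and Gfi1 (97.7). Of the TH2 and T cell markers, Il4 and Il13 (which share their tallest peak, 99.97), Cd4 (99.4), Il24 (99.2), Cd3e and Cd3d (98.2) and Il1rl1 (97.3) had one. The share of all genes with a peak this tall in their window is not given here, so these names have no background beside them.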

How the data were processed

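Chromatin of expanded splenic TH2 cells was immunoprecipitated with an anti-GATA3 antibody by ChIPmentation and sequenced as single reads in 2 libraries. The authors aligned the reads to GRCm38 with Bowtie2 2.3.5.1 and removed those that did not map uniquely; the submitters' processing notes also name MACS2 2.1.2, whose peaks were not used here. The deposited read positions carry the mapping quality as a score, which ran from 22 to 44 in both libraries. No 2 reads of a library shared 5′ end and strand, so duplicates had been removed, by a tool not given in the sources used here. This caps the reads of a 200-bp window at 400.

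From these positions 40504814 and 24959052 reads on chromosomes 1 to 19, X and Y were used. Each 5′ end was moved 100 bp downstream and counted in 200-bp windows at steps of 50 bp. A one-sided exact Poisson test (q of 0.01) was applied to each window with a read. Its comparison was the highest of the library mean and the densities in 5 and 10 kb centred on the window. These spans include the reads of the window itself. Significant windows within 100 bp were joined, and peaks that overlapped by at least 1 bp were shared. Without an input library, local chromatin accessibility and antibody-specific enrichment cannot be told apart.

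Genes and start sites came from GENCODE M21, and sequence from RefSeq GRCm38. Named were each gene's 3 tallest shared peaks with those at start sites, neighbouring genes whose start is nearest to a peak, and genes of the lists with a peak in the top 5% by height, of which 1 is not reported here. The other peaks and places named, and the read densities, were chosen after their values were seen. The members, their windows and the gene lists were chosen with earlier results of these data known. Of the lists, 1 gene of early T cell development and 1 T cell marker were not analysed here. Alternatives were other thresholds, window sizes, flanks, mapping qualities, motif definitions, a thinned library 1 and each library alone. Python 3.11.15 with NumPy 2.4.6, SciPy 1.17.1, pandas 2.3.3 and Matplotlib 3.10.9 was used. Peak calling was tested on simulated reads of 1 chromosome, and the library comparison on simulated counts. The other steps were not tested this way, and recovery of sites as weak as the weaker peaks here is not given. The extraction protocol in the labels names ILC2 cells, and the other labels and the study's methods TH2 cells.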

Additional observations from a re-analysis of the deposited data

How the results depend on the processing

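With a q of 1e-10 the windows held 31 shared peaks in place of 92, 5 gene records and 2 starts had one, 61.3% of the peaks held a GATA word and the median height percentile was 73.1. With at least 5-fold over the local density these were 14 peaks, 3 records, 1 start and a median percentile of 67.8. Flanks of 20 kb left 58 peaks. Peaks called in 1 library alone numbered 107 (library 2) and 194 (library 1), with median percentiles of 68.5 and 77.3. Over the genome library 1 had 71726 peaks, 46975 when thinned to equal depth, and library 2 had 28204, so a gap remained at equal depth; its cause was not tested. In library 1 alone 6 of the 10 genes had a start-site peak, against 33% of all genes. The median percentile was 67.9 with 400-bp windows, 64.0 after library 1 was thinned to match library 2 and 67.5 by the mean RPM, against an SD of 1.57 between libraries. GATA words within 50 bp were at 45.7% of summits, and AGATAA alone at 41.3%; both definitions admit fewer words. With 1 kb around the summit, 16.9% of all shared peaks differed between libraries, in place of 1.94%; the cause was not tested. Of the alternatives tried, 9 of 13 kept the number of peaks within 1.5 times, 7 of 9 the gene records, 10 of 12 the start sites, and 8 of 11 the GATA share within its interval. The median percentile moved by more than that SD in 7 of 10, and the share that differed between libraries changed by over 1.5 times in 1 of 2. Ets1, Foxo1, Klf2 and Myb had 0 shared peaks under at least 1 alternative. The 2 libraries of 1 condition give no comparison of conditions, depth limits weak peaks, and a distal peak is assigned to a gene by position alone. No paired analysis was possible because both libraries belong to the same condition.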

Other observations

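Tall shared peaks also lay in the stretches free of protein-coding genes next to several of the 10 genes, beyond the windows described. Non-coding genes were not considered in drawing these stretches. Counts for a whole stretch include any peaks inside those windows. Between Ets1 and its downstream neighbour Kirrel3, 1728 kb apart, there were 27 shared peaks, of which 3 were in the Ets1 window. The tallest, 303 kb past the end of Ets1 (chr9:33060601-33061650), had 168 reads in library 1 and 136 in library 2, 4.15 and 5.45 RPM, at the 99.3 percentile of height. Foxo1, with 1 shared peak in its window, had 23 in the 629 kb between its end and Cog6, or 3.66 per 100 kb against a genome mean of 0.873. Of these, the peak 106 kb past the end of Foxo1 had 122 and 79 reads (96.7 percentile) and the one at 525 kb had 103 and 125 reads (94.6 percentile). A further peak 70.1 kb upstream of Foxo1 had 123 and 77 reads, at the 96.8 percentile, with an AP-1 word and no GATA word.

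Upstream of Bach2, at 89.5 kb, a peak had 147 and 104 reads at the 98.4 percentile, taller than any inside the gene. Upstream of Lef1, a peak at 300 kb had 139 and 74 reads, at the 96.6 percentile, and upstream of Satb1 one at 515 kb had 107 and 68 reads, at the 95.1 percentile. The 421 kb downstream of Bcl11b held 10 shared peaks and the 103 kb upstream of it 1, which is the upstream peak of its window. The 90.1 kb between Id3 and Rpl11 held 7, of which 5 were in the Id3 window. That was the highest density of the stretches longer than 10 kb, at 7.77 per 100 kb, and the tallest of the 7 was at the 85.7 percentile. A peak is named here by the member at 1 end of its stretch, and some lie nearer to the other end. Such are the Foxo1 peak at 525 kb in 629 kb and the Lef1 peak at 300 kb in 380 kb. The Satb1 peak at 515 kb, in 769 kb, is another. No measurement here ties these peaks to a gene.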
